A study of Homo sapiens with 8 samples.

Results

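The G1-S genes examined here are 10 genes that govern the passage of a cell from growth into DNA synthesis: the D-type cyclins CCND1 and CCND3, the E-type cyclins CCNE1 and CCNE2, the cyclin-dependent kinases CDK4, CDK6 and CDK2, the kinase inhibitors CDKN1A and CDKN1B, and the retinoblastoma gene RB1. They were chosen by symbol from the 60675 genes of the count tables, and all 10 passed the filter on low counts that left 16661 genes for testing. Expression was measured by sequencing of polyadenylated RNA in the established pancreatic cancer line Panc10.05, of human origin, and in a derivative of it with acquired resistance to indisulam, a sulfonamide that directs the splicing factor RBM39 to a ubiquitin ligase for degradation. The 8 libraries fell into 4 groups of 2. Parental cells were untreated or had received 2 µM indisulam for 18 h. Resistant cells were either kept on 2 µM indisulam without a break (resistant indisulam) or taken off it for a drug holiday (resistant untreated), so the length of exposure differed between the lines. A single resistant derivative was profiled, and the 2 libraries of a group are technical replicates per the study, so p-values measure the spread between libraries. The titles name Panc10.05, whereas the growth notes of the labels name A549, a lung cancer line.

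A cell commits to division when D-type cyclins bind CDK4 or CDK6 and E-type cyclins bind CDK2. These kinases phosphorylate the retinoblastoma protein, which then releases the E2F transcription factors, and E2F drives the genes of DNA replication. The inhibitors p21 (CDKN1A) and p27 (CDKN1B) bind the cyclin-kinase complexes and hold the cell in G1. In pancreatic cancer this gate is often weakened by loss of the inhibitor gene CDKN2A.

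A gene is said to be called where its adjusted p (Benjamini-Hochberg, over all 16661 genes) was under 0.05 in the quasi-likelihood test of edgeR, and only called changes are said to rise, fall or be higher or lower. Changes are log2 fold changes with their standard error (SE). Levels are CPM, read counts scaled to a common library total by TMM, the trimmed mean of M values. Positions are those of GENCODE 44 on GRCh38.

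Of the members, 2 differed between the lines by more than 2-fold, and both were higher in resistant cells: the cyclin gene CCNE1, by 2.94-fold off the drug and 2.84-fold on it, and the inhibitor gene CDKN1A, by 2.12-fold and 2.32-fold. The D-type cyclins CCND1 and CCND3 were also higher in resistant cells, by 1.33-fold and 1.5-fold off the drug, while the other inhibitor gene, CDKN1B, was lower (log2 fold change -0.49). Indisulam itself moved no member by 2-fold in either line. CDKN1A and CDKN1B rose and CCNE2 fell with the drug in both lines. CDK4, CDK6, CDK2, CCND3, CCNE2 and CDKN1B responded differently in the lines by the test of that difference. The parental call of CDKN1A and the difference of CCND3 were lost under some alternatives, and the values of CCNE2 are uncertain, as given below. The share of members called was below that of all tested genes with the drug in the parental line and above it in the other comparisons, and no test of these shares was made.

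**Figure D1:**
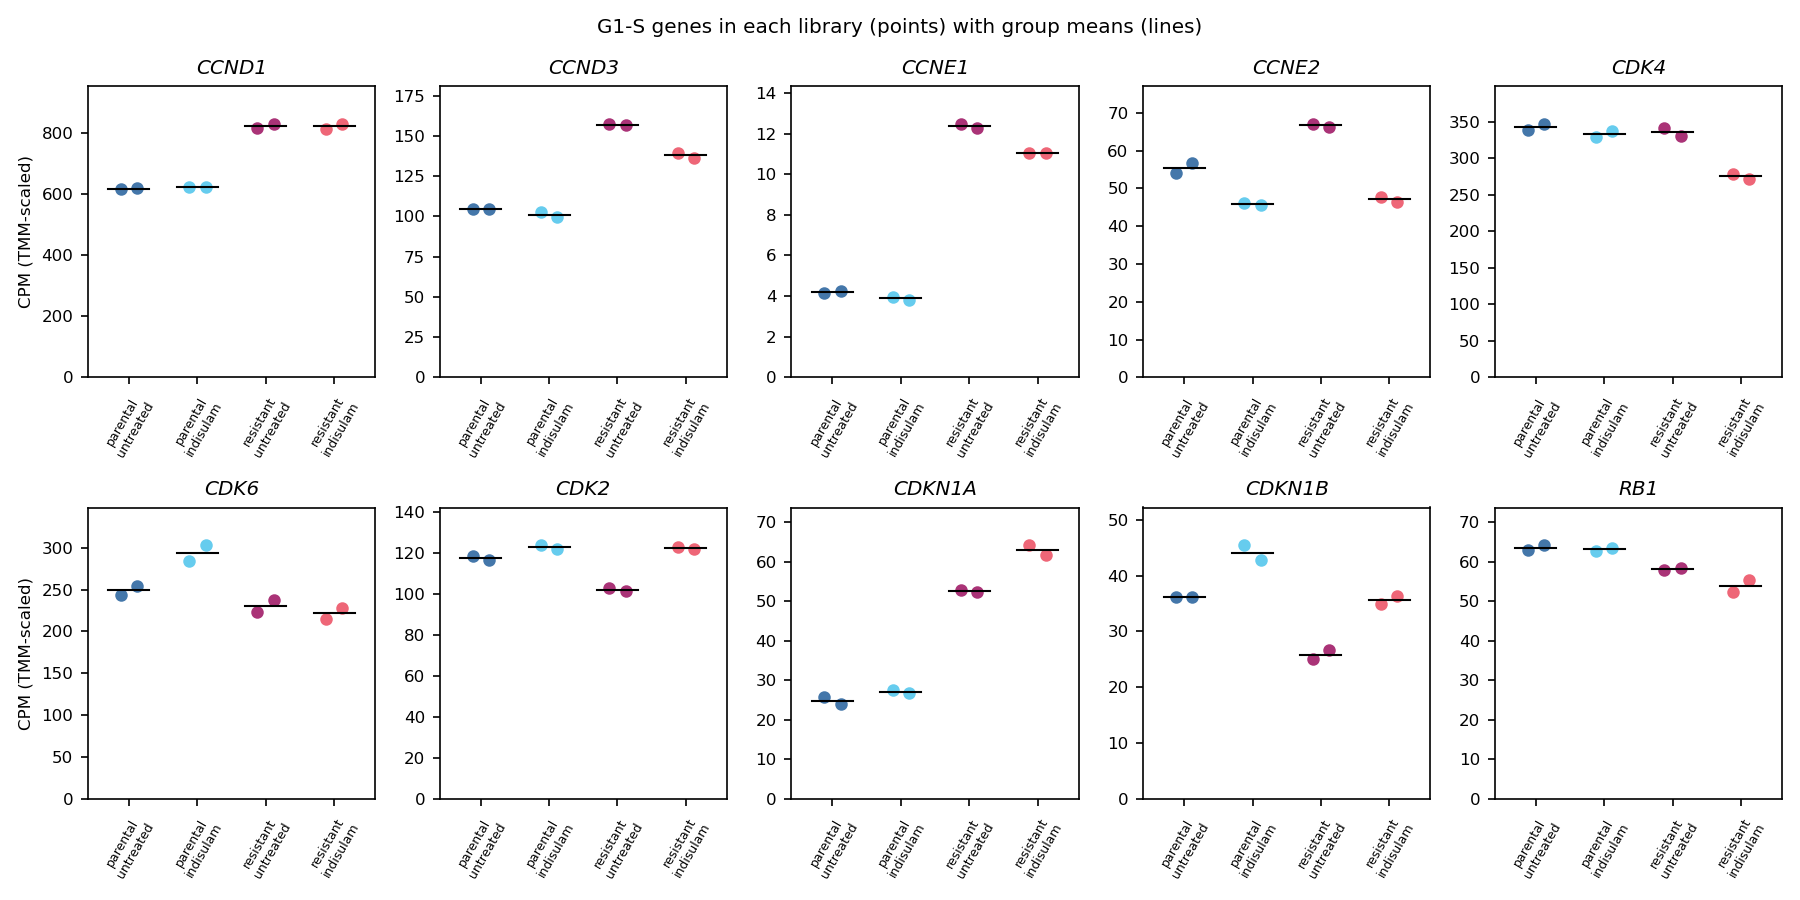
Levels of the 10 G1-S genes (TMM-scaled CPM, linear axes from 0) in each library (points) and the mean of each group (lines). CCNE1 lies at 11.03 to 12.5 CPM in resistant and 3.80 to 4.25 CPM in parental libraries and CDKN1A at 52.4 to 64.1 and 24.0 to 27.4 CPM, while CDKN1B is lowest in resistant untreated cells at 25.0 and 26.6 CPM.

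Reads assigned to genes numbered 65266253 to 108002436 per library, so members were counted with 294 reads or more. Duplicates made up 14.1 to 18.4% of all reads. Among the checks of identity, the epithelial markers KRT8, KRT18, KRT19, EPCAM and CDH1 were high in every group (means of 169.6 to 4757 CPM). Of 6 pancreatic ductal cancer markers, CLDN18 was at 0, S100P, CEACAM6 and PDX1 were under 0.1 CPM, and GATA6 and MUC1 lay between 2.68 and 18.4 CPM. The lung markers NKX2-1 and SFTPB had no reads, SFTPC had a mean of at most 0.00457 CPM and NAPSA of at most 0.195 CPM. Whether these markers tell A549 from Panc10.05 was not tested. The markers of blood cells (PTPRC) and of islets (INS) were at 0, PECAM1, AMY2A and PRSS1 were under 0.06 CPM, and VIM and COL1A1 reached 1.08 and 3.92 CPM. Of the 10 markers tested, 8 were higher in resistant cells off the drug, KRT8 and KRT18 among them, where 30.3% of all tested genes were. The part of this in the results below was not tested. RBM39, the gene of the drug target, was at 332 and 337 CPM in the untreated and 716 and 731 CPM in the treated parental libraries, then 299 and 311 CPM in the resistant libraries off the drug and 577 and 591 CPM in those on it.

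Levels between genes were compared as CPM per kilobase of exon, with the length taken over the merged exons of all GENCODE transcripts. That length is 9255 bases for CDKN1B and 2996 bases for CDKN1A. Which transcripts the cells used was not determined. A gene whose main transcript is much shorter than this length has its level understated, so the order between genes is uncertain. CCND1 had the highest level in every group, at 129.9 per kb in parental untreated and 172.8 in resistant untreated cells, followed by CDK4 at 111.0 and 108.5. In parental untreated cells the order continued with CDK2 (30.2), CDK6 (20.4), CCND3 (18.2), CCNE2 (12.6), RB1 (9.88), CDKN1A (8.29), CDKN1B (3.91) and CCNE1 (1.71 per kb). No pair of neighbours in this order overlapped between their libraries in any group, which does not cover the uncertainty in length. CCNE1 was last in both parental groups, and CDKN1B was last in both resistant groups, at 2.79 and 3.85 per kb. CDKN1A moved from rank 8 in both parental groups to rank 6 in resistant untreated and rank 5 in resistant indisulam cells.

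The promoters of the 3 members with the widest range over the groups are shown because their levels varied most over the groups. They are the 250 bases before the RefSeq start on GRCh38.p14, plus strand, 5′ to 3′, with each GC box (GGGCGG on either strand, the core letters bound by Sp1-type factors) in capitals. CCNE1 lies at chr19:29811741-29811990, CDKN1A at chr6:36678464-36678713 and CDKN1B at chr12:12717118-12717367. For CDKN1A and CDKN1B the RefSeq start lies inside the GENCODE gene span.
CCNE1: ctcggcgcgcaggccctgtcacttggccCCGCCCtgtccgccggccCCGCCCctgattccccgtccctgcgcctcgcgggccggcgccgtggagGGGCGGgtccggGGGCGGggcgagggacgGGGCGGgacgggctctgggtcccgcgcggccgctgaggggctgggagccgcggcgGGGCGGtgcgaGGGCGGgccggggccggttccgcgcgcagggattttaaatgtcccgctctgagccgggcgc
CDKN1A: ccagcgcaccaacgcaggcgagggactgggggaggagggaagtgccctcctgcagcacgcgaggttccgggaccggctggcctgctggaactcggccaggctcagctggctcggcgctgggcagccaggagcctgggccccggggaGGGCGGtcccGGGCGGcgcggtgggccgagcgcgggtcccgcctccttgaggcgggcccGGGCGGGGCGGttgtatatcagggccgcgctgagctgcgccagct
CDKN1B: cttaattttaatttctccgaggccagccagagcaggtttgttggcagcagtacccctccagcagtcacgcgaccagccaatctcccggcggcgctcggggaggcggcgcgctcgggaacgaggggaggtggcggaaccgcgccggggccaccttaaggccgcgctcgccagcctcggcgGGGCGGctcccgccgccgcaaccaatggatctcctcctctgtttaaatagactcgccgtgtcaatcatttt
RefSeq promoters were found for 7 of the 10 members, and CCND1, CCNE2 and CDK2 were not matched. CCNE1 held 7 GC boxes, CCND3 5, CDKN1A 4 with a pair that overlaps, CDK4 and CDK6 3 each, CDKN1B 1 and RB1 0, and 42.6% of all 35116 promoters of this length held at least 1. The E2F letters TTTCCCGC, TTTGGCGC, TTTCGCGC and TTTGCCGC, searched on both strands, were in none of these 7 windows and in 2.79% of all promoters. The letters TATAAA were in none of the 7 and in 10.7% of all promoters. These are matches of letters in a fixed window and say nothing of binding.

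The D-type cyclins pass growth signals to the kinases CDK4 and CDK6. CCND1 (ENSG00000110092, chromosome 11, 69641156 to 69654474, plus strand) was at 617 and 619 CPM in the untreated and 624 and 624 CPM in the treated parental libraries, then 816 and 830 CPM in the resistant libraries off the drug and 815 and 830 CPM in those on it. All 4 resistant libraries were above all 4 parental ones. The log2 fold change between the lines was 0.41 off the drug (adjusted p 2.8e-12, SE 0.027) and 0.40 on it (adjusted p 4.1e-12, SE 0.027). No response of CCND1 to the drug was detected, with log2 fold changes of 0.012 in parental cells (adjusted p 0.72, SE 0.027) and -0.00077 in resistant cells (adjusted p 0.98, SE 0.027).

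CCND3 (ENSG00000112576, chromosome 6, 41934934 to 42050357, minus strand) was at 105 and 105 CPM in the untreated and 103 and 99.8 CPM in the treated parental libraries, then 157 and 157 CPM in the resistant libraries off the drug and 139 and 136 CPM in those on it. It exceeded the parental level by 0.58 (log2) off the drug (adjusted p 9.4e-15, SE 0.028) and by 0.45 on it (adjusted p 1.7e-12, SE 0.029). Unlike CCND1, CCND3 fell by 0.19 log2 units in treated resistant cells (adjusted p 6.3e-06, SE 0.028), and in parental cells it had a log2 fold change of -0.051 (adjusted p 0.14, SE 0.029). The parental change was called when any 1 of the 4 resistant libraries was left out (-0.071 to -0.073), in the compared groups alone (-0.072), without a filter on low counts (-0.081) and at a mean CPM of at least 1 (-0.11). The difference of the responses was -0.14 (adjusted p 0.0067, SE 0.04), and it was not called at a mean CPM of at least 1 (-0.053), without parental indisulam replicate 1 (-0.10) or resistant indisulam replicate 2 (-0.10). The per-kb ratio of CCND1 to CCND3 was 7.13 and 7.15 in untreated and 7.36 and 7.56 in treated parental libraries, then 6.27 and 6.41 in resistant libraries off the drug and 7.08 and 7.37 in those on it. CCND1 was therefore several times higher than CCND3 in every library, and least so in resistant cells off the drug.

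The E-type cyclins activate CDK2 at the start of DNA synthesis. CCNE1 (ENSG00000105173, chromosome 19, 29811991 to 29824312, plus strand) was at 4.18 and 4.25 CPM in the untreated and 3.97 and 3.80 CPM in the treated parental libraries, then 12.5 and 12.3 CPM in the resistant libraries off the drug and 11.07 and 11.03 CPM in those on it. These were 457, 454, 298, 294, 924, 797, 746 and 1061 reads, so it was the least counted member. The groups of the 2 lines did not overlap. Its log2 fold change between the lines was 1.55 off the drug (adjusted p 2.1e-16, SE 0.062) and 1.51 on it (adjusted p 1.4e-15, SE 0.067). A change as large in either direction was found for 5.97% of tested genes off the drug and 8.02% on it. The drug moved it little, with a log2 fold change of -0.12 in parental cells (adjusted p 0.19, SE 0.074) and -0.16 in resistant cells (adjusted p 0.018, SE 0.056). The call in resistant cells was lost without resistant untreated replicate 1 (-0.15), resistant indisulam replicate 1 (-0.17) or resistant indisulam replicate 2 (-0.16), and with the DESeq2 Wald test.

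CCNE2 (ENSG00000175305, chromosome 8, 94879770 to 94896678, minus strand) followed another course. It was at 54.1 and 56.7 CPM in the untreated and 46.2 and 45.5 CPM in the treated parental libraries, then 67.0 and 66.4 CPM in the resistant libraries off the drug and 47.7 and 46.5 CPM in those on it. Untreated libraries were above treated ones in both lines. CCNE2 fell by 0.27 log2 units in treated parental cells (adjusted p 3.5e-07, SE 0.034) and fell by 0.50 in treated resistant cells (adjusted p 1.9e-11, SE 0.034), a difference of -0.23 (adjusted p 0.00033, SE 0.048). The lines differed off the drug, by 0.27 (adjusted p 1.9e-07, SE 0.033), and no difference was called on it (0.037, adjusted p 0.36, SE 0.035), although one was called at a mean CPM of at least 1 (0.12, adjusted p 0.0055). CCNE2 shares 1629 exonic bases with INTS8 on the opposite strand, INTS8 took 72.0% of the reads of both, and the strand setting of the counting is not given in the sources used here, so the values of CCNE2 are uncertain. INTS8 had log2 fold changes of 0.49 in treated parental cells and 0.062 in the resistant line, and its part in the values of CCNE2 was not tested.

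The per-kb ratio of CCNE1 to CCNE2 was 0.138 and 0.134 in untreated and 0.154 and 0.149 in treated parental libraries, against 0.333 and 0.330 in resistant libraries off the drug and 0.414 and 0.424 in those on it. The ratios of the 2 lines did not overlap, which was not tested, and they carry the uncertainty of CCNE2. CCNE2 had the higher level of the pair in all 8 libraries.

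**Figure D2:**
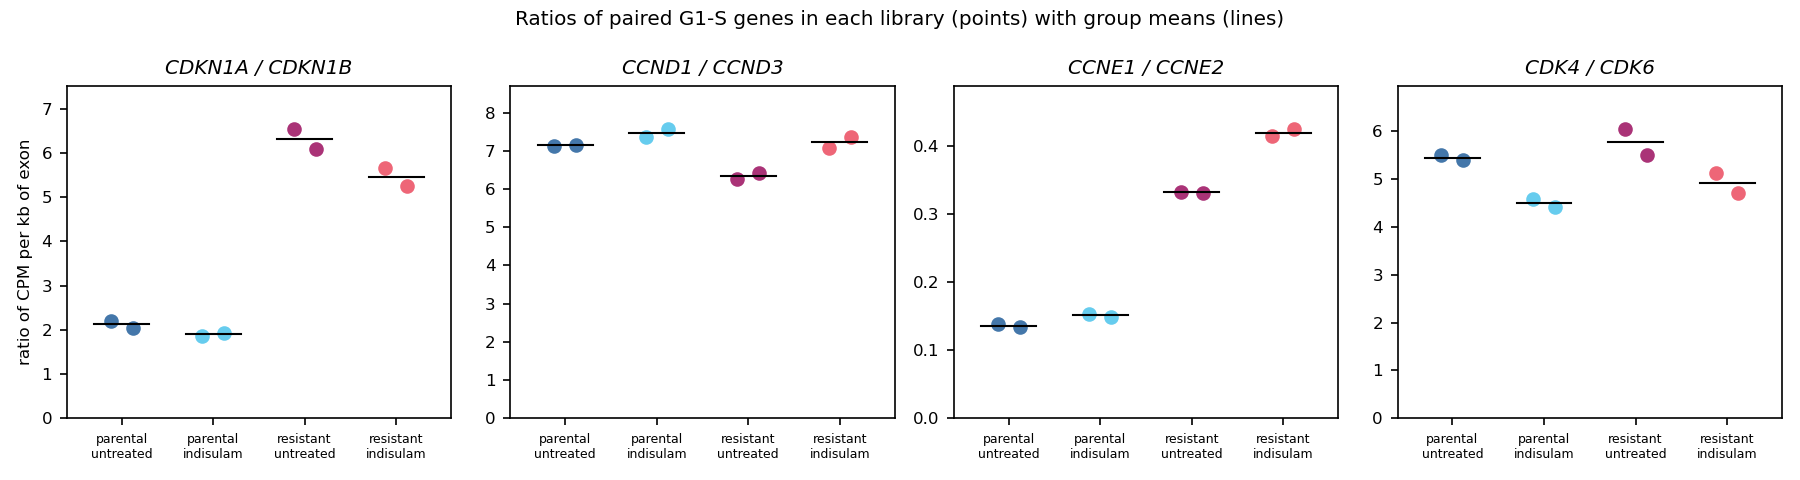
Ratios of CPM per kb of exon for 4 pairs of members in each library (points) with group means (lines), each on a linear axis from 0. The ratio of CDKN1A to CDKN1B lies at 1.87 to 2.195 in parental and 5.24 to 6.53 in resistant libraries, and that of CCNE1 to CCNE2 at 0.134 to 0.154 and 0.330 to 0.424.

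CDK4 and CDK6 are the kinases of the D-type cyclins. CDK4 (ENSG00000135446, chromosome 12, 57747727 to 57756013, minus strand) was at 339 and 347 CPM in the untreated and 329 and 338 CPM in the treated parental libraries, then 341 and 330 CPM in the resistant libraries off the drug and 279 and 272 CPM in those on it. The resistant indisulam group stood below the other 3. CDK4 fell by 0.28 log2 units in treated resistant cells (adjusted p 1.7e-08, SE 0.029), and its log2 fold change in parental cells was -0.042 (adjusted p 0.22, SE 0.028), a difference of -0.24 (adjusted p 2.9e-05, SE 0.04). The lines were not told apart off the drug (-0.032, adjusted p 0.35, SE 0.029), and on it CDK4 was below the parental level (-0.27, adjusted p 9.8e-09, SE 0.029). CDK4 shares 1369 exonic bases with TSPAN31 on the opposite strand (6.22% of the reads that fell on either gene).

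CDK6 (ENSG00000105810, chromosome 7, 92604921 to 92836573, minus strand) was at 244 and 255 CPM in the untreated and 284 and 303 CPM in the treated parental libraries, then 223 and 237 CPM in the resistant libraries off the drug and 215 and 228 CPM in those on it. The parental indisulam group was the highest. CDK6 rose by 0.23 log2 units in treated parental cells (adjusted p 0.00012, SE 0.039), and in resistant cells its log2 fold change was -0.053 (adjusted p 0.29, SE 0.04), a difference of -0.29 (adjusted p 6e-04, SE 0.056). On the drug it stood below the parental level (-0.40, adjusted p 2.7e-07, SE 0.04). Off the drug the log2 fold change was -0.11 (adjusted p 0.021, SE 0.04), and this call was lost without parental untreated replicate 2 (-0.084) or resistant untreated replicate 1 (-0.072). Per kb, CDK4 was the higher kinase gene in every library, with a ratio to CDK6 of 4.42 to 4.59 in parental indisulam and 4.72 to 6.04 in the other libraries.

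CDK2, the kinase of the E-type cyclins (ENSG00000123374, chromosome 12, 55966781 to 55972789, plus strand), was at 119 and 116 CPM in the untreated and 124 and 122 CPM in the treated parental libraries, then 103 and 101 CPM in the resistant libraries off the drug and 123 and 122 CPM in those on it. The resistant untreated group was the lowest. CDK2 rose by 0.26 log2 units in treated resistant cells (adjusted p 5.9e-08, SE 0.029), and in parental cells its log2 fold change was 0.065 (adjusted p 0.053, SE 0.028), a difference of 0.20 (adjusted p 0.00027, SE 0.04). It was lower in resistant cells off the drug (-0.20, adjusted p 1.3e-06, SE 0.028) and not called on it (-0.0063, adjusted p 0.86, SE 0.028). With the drug CDK6 was called in parental cells, and CDK4 and CDK2 were called in resistant cells, in opposite directions. In parental cells CDK4 was also called lower at a mean CPM of at least 1 (-0.098, adjusted p 0.005) and in the compared groups alone (-0.062, adjusted p 0.04), and CDK2 was called higher with DESeq2 size factors (0.071, adjusted p 0.043).

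The inhibitors CDKN1A and CDKN1B encode p21 and p27. CDKN1A, a classical target of p53 (ENSG00000124762, chromosome 6, 36676460 to 36687337, plus strand), was at 25.7 and 24.0 CPM in the untreated and 27.4 and 26.7 CPM in the treated parental libraries, then 52.9 and 52.4 CPM in the resistant libraries off the drug and 64.1 and 61.6 CPM in those on it. All resistant libraries were above all parental ones. The log2 fold change between the lines was 1.08 off the drug (adjusted p 2.2e-17, SE 0.039) and 1.21 on it (adjusted p 2.9e-18, SE 0.039), and 10.5% and 11.4% of tested genes had as large a change in either direction. With the drug CDKN1A rose by 0.25 log2 units in resistant cells (adjusted p 3.4e-06, SE 0.037) and by 0.12 in parental cells (adjusted p 0.012, SE 0.041). The parental call was lost without parental untreated replicate 2 (0.076) or parental indisulam replicate 1 (0.088), without a filter on low counts (0.094) and at a mean CPM of at least 1 (0.068). The difference of the responses was 0.13 (adjusted p 0.054, SE 0.055), and it was called without parental untreated replicate 2 (0.18), parental indisulam replicate 1 (0.16), resistant untreated replicate 1 (0.16) or resistant indisulam replicate 2 (0.18).

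CDKN1B (ENSG00000111276, chromosome 12, 12685498 to 12722369, plus strand) was at 36.2 and 36.1 CPM in the untreated and 45.4 and 42.8 CPM in the treated parental libraries, then 25.0 and 26.6 CPM in the resistant libraries off the drug and 35.0 and 36.3 CPM in those on it. Treated libraries were above untreated ones within each line, and the levels in resistant cells on the drug overlapped those in parental cells off it. CDKN1B rose by 0.29 log2 units in treated parental cells (adjusted p 9.6e-07, SE 0.038) and by 0.47 in resistant cells (adjusted p 2.2e-09, SE 0.042), a difference of 0.18 (adjusted p 0.0097, SE 0.057). It was lower in resistant cells off the drug (-0.49, adjusted p 2.9e-10, SE 0.041) and on it (-0.30, adjusted p 2.9e-07, SE 0.039). The inhibitor genes therefore moved the same way with the drug and opposite ways between the lines. The per-kb ratio of CDKN1A to CDKN1B was 2.195 and 2.05 in untreated and 1.87 and 1.93 in treated parental libraries, then 6.53 and 6.08 in resistant libraries off the drug and 5.66 and 5.24 in those on it. The size of this ratio depends on the exon lengths used, while its contrast between libraries does not.

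RB1, the substrate of these kinases and the brake on E2F (ENSG00000139687, chromosome 13, 48303744 to 48599436, plus strand), changed little with the drug. It was at 63.0 and 64.2 CPM in the untreated and 62.8 and 63.6 CPM in the treated parental libraries, then 58.0 and 58.5 CPM in the resistant libraries off the drug and 52.5 and 55.5 CPM in those on it. RB1 was lower in resistant cells off the drug (-0.13, adjusted p 0.0021, SE 0.033) and on it (-0.22, adjusted p 2.7e-06, SE 0.034). Its log2 fold change with the drug was -0.0091 in parental cells (adjusted p 0.83, SE 0.033) and -0.11 in resistant cells (adjusted p 0.011, SE 0.034), where the call was lost without resistant indisulam replicate 1 (-0.074).

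**Figure D3:**
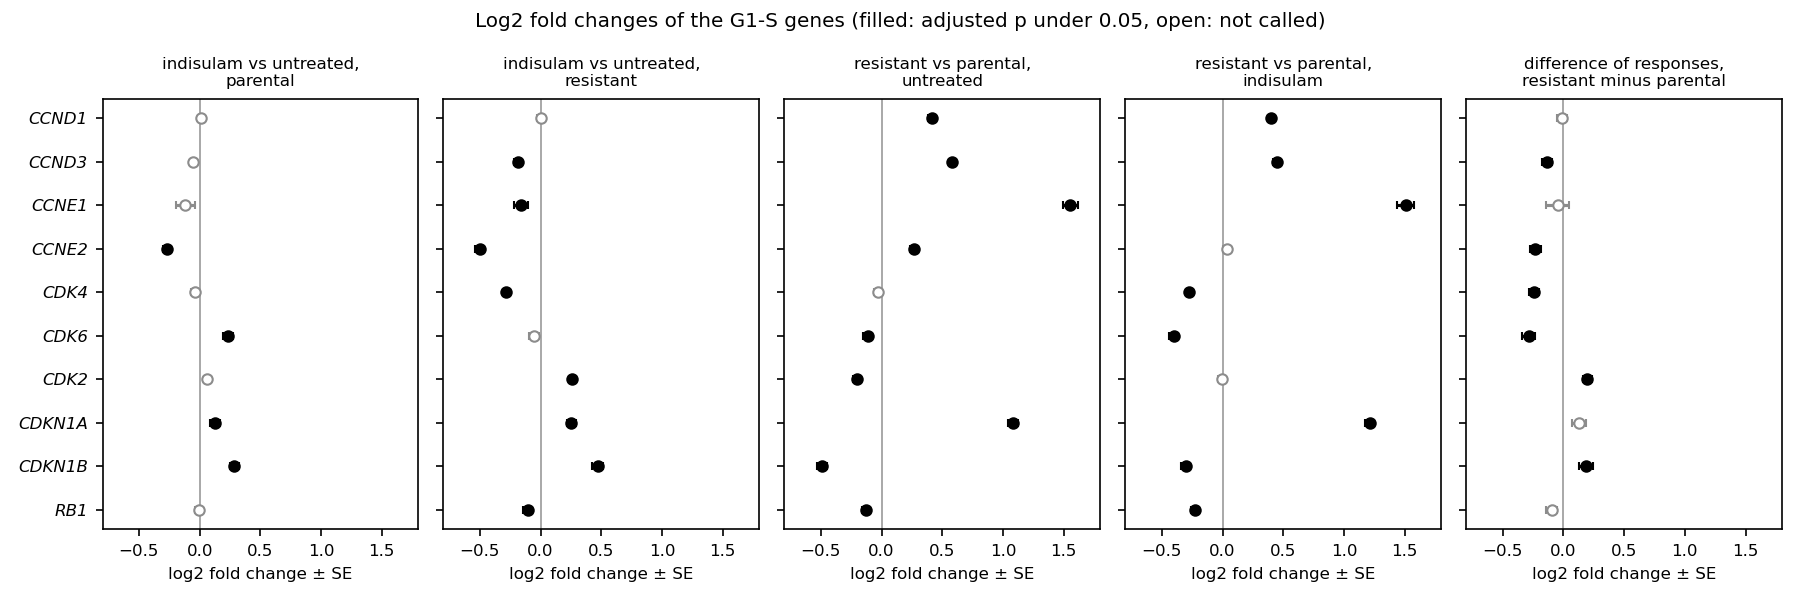
Log2 fold changes (points) with standard errors (bars) of the 10 members in the 5 comparisons, filled where the adjusted p of edgeR was under 0.05. Between the lines CCNE1 (1.55 and 1.51) and CDKN1A (1.08 and 1.21) lie far to the right, and with the drug every member lies within 0.51 log2 units of 0.

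In parental cells the drug was followed by a call for 4 of the 10 members, 3 higher and 1 lower, where 58.2% of all tested genes were called (31.6% higher and 26.6% lower). In resistant cells 8 members were called, 3 higher and 5 lower (50.7% of all genes, 24.9% higher and 25.8% lower). Between the lines 9 members were called off the drug, 5 higher and 4 lower in resistant cells (60.1% of all genes, 30.3% higher and 29.9% lower), and 8 on the drug, 4 higher and 4 lower (69.5%, 34.6% higher and 34.9% lower). The difference of the responses was called for 6 members, 2 higher and 4 lower (50.1%, 22.7% higher and 27.5% lower). A call with a change of at least 2-fold was made for no member in treated parental cells, in treated resistant cells or in the difference, where 6.33%, 5.2% and 7.78% of all genes had one. CCNE1 and CDKN1A had one between the lines off the drug (11% of all genes, 6.93% higher) and on it (14.8%, 12.4% higher). The 2 drug comparisons share no library with each other, and 3 members were called in both, all in the same direction. The 2 line comparisons share none either, and 7 members were called in both, 4 higher and 3 lower each time. The share of all tested genes called in both was not computed, so these 2 counts only describe the members. The groups compared did not overlap for 9 members in treated parental cells, 8 in resistant cells, and 9 between the lines both off and on the drug, where 78.8%, 73%, 79.5% and 83.8% of all genes did not. The median log2 fold change of the members was 0.0016, -0.080, 0.12, 0.015 and -0.073 in the order of these comparisons, against 0.014, 0.0093, -0.015, 0.0032 and 0.010 over all tested genes. Tested against a change of 0.5 log2 units with glmTreat, CCND3, CCNE1 and CDKN1A remained called between the lines off the drug (15.5% of all genes) and CCNE1 and CDKN1A on it (21.1%). By glmTreat no member had an unadjusted p under 0.05 with the drug in either line or in the difference of the responses, where 6.25%, 5.28% and 5.45% of all genes were called.

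Scaling matters for the small changes. With library totals alone in place of TMM, the median of all genes moved by -0.066 in treated parental cells, 0.049 in treated resistant cells, 0.088 between the lines on the drug and 0.12 in the difference of the responses. The share of all calls that were higher then moved from 54.3 to 42.0%, from 49.1 to 59.7%, from 49.8 to 59.7% and from 45.2 to 65.8% in these comparisons. Under that scaling the calls of CDKN1A in treated parental cells, of CCNE1 and RB1 in treated resistant cells, and of CCND3 in the difference of the responses were lost. Calls were gained there for CCND3 (-0.12), CCNE1 (-0.18) and CDK4 (-0.11) in treated parental cells, for CCNE2 (0.12) and CDK2 (0.081) between the lines on the drug, and for CDKN1A (0.24) and CCND1 (0.10) in the difference of the responses. At a mean CPM of at least 1, CCNE1 in treated parental cells (-0.17) and CDKN1A in the difference of the responses (0.21) were also called.

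Other genes of the G1-S machinery were taken from lists of 62 genes, of which 60 were tested. CCND2, the third D-type cyclin, and CCNA1, a germ-line cyclin, did not pass the filter. With the drug 24 rose and 14 fell in parental cells (31.6% and 26.6% of all tested genes did). In resistant cells 22 rose and 20 fell (24.9% and 25.8%). Between the lines 22 were higher and 20 lower off the drug (30.3% and 29.9%), and 15 were higher and 30 lower on it (34.6% and 34.9%). The difference of the responses was positive for 14 and negative for 22 (22.7% and 27.5%). The same shares of all genes apply to the counts of the lists below, and no test of the counts against them was made.

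Among the other cyclins and kinase partners, CCNH, a subunit of the kinase that activates CDKs, fell by 0.91 log2 units in treated parental cells (adjusted p 1e-14, SE 0.038). It fell by 0.40 in treated resistant cells (adjusted p 1.1e-08), and the difference of the responses was 0.51 (adjusted p 8.8e-08, SE 0.055). CDK7 and MNAT1, the other subunits of that kinase, rose in treated parental cells, by 0.35 (adjusted p 2.2e-08) and 0.32 (adjusted p 3.3e-06). In treated resistant cells CDK7 rose by 0.29 (adjusted p 1e-06), and MNAT1 was not called (0.0056, adjusted p 0.94). CCNG1, a p53-induced cyclin, rose by 0.56 in both lines. CCNA2, the cyclin of S and G2 phase, rose by 0.47 in resistant cells (adjusted p 7.8e-12) and by 0.35 in parental cells (adjusted p 7.1e-10). CDC25A, the phosphatase that activates CDK2, had a difference of the responses of -0.47 (adjusted p 4.8e-08, SE 0.049). In this list of 10 tested genes 7 rose and 2 fell in treated parental cells, and 1 was higher and 5 were lower in resistant cells off the drug.

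The 5 other CDK inhibitors were, with CDKN1B, mostly lower in resistant cells. Off the drug 4 of 5 were lower, with log2 fold changes of -1.16 for CDKN2D, -1.11 for CDKN2C, -0.79 for CDKN2B and -0.43 for CDKN2A, and CDKN1C had -0.17 (adjusted p 0.41). CDKN2C, an inhibitor of CDK4 and CDK6, had means of 45.8 CPM in the parental and 21.2 CPM in the resistant line off the drug. CDKN2A, which encodes p16, was present, at 42.1, 44.5, 31.2 and 28.3 CPM in the 4 groups in the order used above. On the drug 4 were lower and CDKN1C was higher, by 0.65. With the drug 4 of 5 rose in resistant cells and CDKN2A fell by 0.14, while in parental cells CDKN2C rose. CDKN2B had a log2 fold change of -0.14 there (adjusted p 0.048), and this call was lost with DESeq2 size factors, the DESeq2 Wald test, the replicate block and without either parental untreated library or parental indisulam replicate 2.

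The pocket proteins, E2F factors and their partners are the layer that RB1 belongs to. With the drug 7 of 17 rose and 3 fell in parental cells, and 1 rose and 9 fell in resistant cells. The difference of the responses was negative for 10 of 17, with a median of -0.19 (all genes 0.010). With library totals alone in place of TMM, 5 were negative and 3 positive (median -0.076), and in resistant cells 8 fell and 4 rose with the drug. E2F1, the activating E2F, fell by 0.60 (adjusted p 5.2e-13, SE 0.033) and E2F2 fell by 0.57 (adjusted p 9.8e-10, SE 0.049) in treated resistant cells. Both also fell in parental cells, by 0.41 (adjusted p 5.4e-10) and 0.26 (adjusted p 5.4e-05). Their differences of the responses were -0.19 (adjusted p 0.0016) and -0.31 (adjusted p 0.00069). RBL1, which encodes the pocket protein p107, fell by 0.46 in parental cells (adjusted p 1.8e-11, SE 0.031) and by 0.51 in resistant cells (adjusted p 2.8e-12). Its difference of the responses was -0.044 (adjusted p 0.42). E2F6, a repressive E2F, and LIN52, of the DREAM complex that represses cell cycle genes, had differences of the responses of -0.48 and -0.47.

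Among the genes for turnover of cyclins and inhibitors, CKS2, a small CDK-binding protein, was below the parental level off the drug (log2 -1.19, adjusted p 1.3e-15, SE 0.038) and on it (-1.46, adjusted p 3.6e-17, SE 0.037). With the drug it rose by 0.62 in parental cells and by 0.34 in resistant cells (adjusted p 6e-07). FBXO4, the receptor of a ubiquitin ligase linked to D-type cyclins, was higher in resistant cells by 0.62 off the drug and fell with the drug by 0.57 in parental and by 0.52 in resistant cells. SKP1, the adaptor of such ligases, rose by 0.37 in parental cells. In this list of 14 genes 7 were higher and 3 lower in resistant cells off the drug.

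Of the 14 upstream regulators 5 were higher and 6 lower in resistant cells off the drug. EGR1 and JUN, early-response transcription factors, were higher by 0.96 and 0.53 off the drug and by 1.13 and 0.98 on it. FOXO1, a transcription factor that induces CDKN1B, had log2 fold changes of -0.92 off the drug and -0.83 on it (adjusted p 2.5e-12). FOXO3, also of this list, went the other way and was called higher in both line comparisons (untreated cells 0.21, cells with indisulam 0.23). The part of either gene in the level of CDKN1B was not tested. KLF6, a zinc finger factor known to induce CDKN1A, rose by 0.64 in treated resistant cells (adjusted p 2.4e-14, SE 0.03), and the difference of the responses was 0.73 (adjusted p 7e-12, SE 0.043). KLF4, of the same list, was not called in treated resistant cells (0.0095, adjusted p 0.86). Between the lines KLF4 was lower in resistant cells off the drug (-0.74) and on it (-0.62). Of 20 p53 targets other than CDKN1A, 8 were higher and 8 lower in resistant cells off the drug. TP53I3 was higher by 0.98 and PHLDA3 by 4.34 log2 units, the latter from a mean of 0.0877 CPM in parental untreated cells, and BTG2 and TIGAR were lower (-0.84 and -0.80).

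Downstream of the gate, 22 replication genes that E2F drives were compared with 14 mitotic genes. Off the drug 18 of 22 replication genes were higher in resistant cells and 1, UHRF1 (-0.29), was lower, while 14 of 14 mitotic genes were lower. The list medians were 0.25 and -0.64 log2 units, against -0.015 over all genes. On the drug 7 replication genes were higher and 8 lower (median 0.026), and 12 of 14 mitotic genes were lower (median -0.45). With library totals alone, 12 replication genes were higher and 5 lower there. GINS1, of the replicative helicase, was higher by 0.90 (adjusted p 1.1e-17, SE 0.031), and MKI67 and CCNB2 were lower (-0.93 and -0.94). With the drug in resistant cells 20 of 22 replication genes fell and 14 of 14 mitotic genes rose, with medians of -0.38 and 0.46. In parental cells 13 replication genes fell and 4 rose (median -0.12), led by TYMS, thymidylate synthase, which fell by 0.81, and CDC45, which fell by 0.71. There 11 mitotic genes rose and 2 fell (median 0.31), with AURKA higher by 0.65. The libraries were made from bulk cultures, so the share of cells in a phase of the cycle and the RNA per cell cannot be told apart. Between the lines off the drug, and with the drug in each line, the medians of the replication and mitotic lists had opposite signs. The part of these lists in the changes of the members was not tested.

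**Figure D4:**
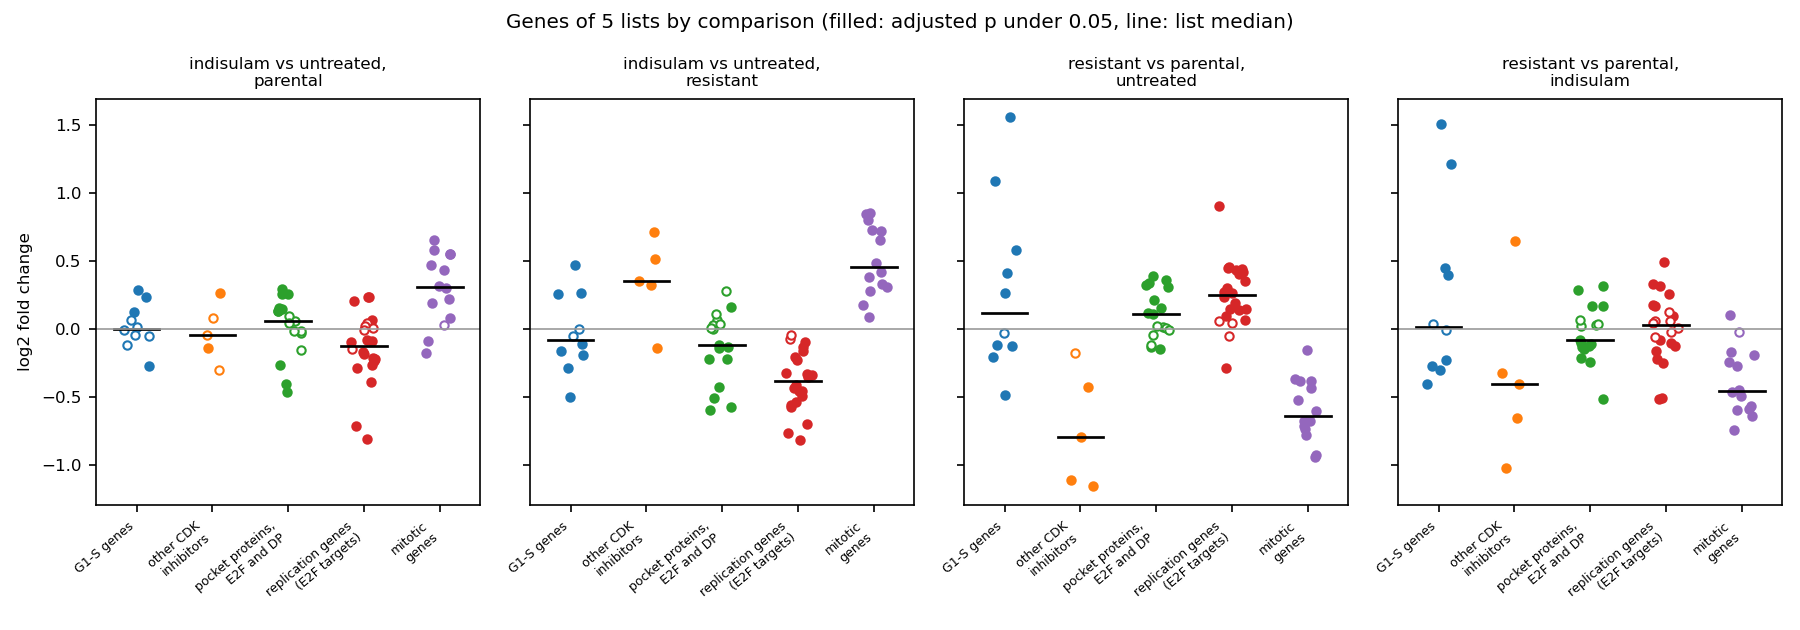
Log2 fold changes of single genes (points, filled where called) and list medians (lines) for the 10 G1-S genes, 5 other CDK inhibitors, 17 pocket protein, E2F and DP genes, 22 replication genes and 14 mitotic genes in 4 comparisons. Replication genes and mitotic genes lie on opposite sides of 0 in resistant against parental untreated cells, with medians of 0.25 and -0.64.

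Genes whose pattern over the 8 libraries was closest to that of a member were found by the root mean square distance between log2 CPM values, each centred on its mean, among 8936 protein-coding genes. For CCNE1 they were PCDH1 (0.046), FMNL3 (0.072) and TAGLN2 (0.078). For CDKN1A they were RIMS2 (0.025), SH3BP5 (0.042) and PJA1 (0.053), and for CDKN1B they were HBP1 (0.041), DAPK3 (0.042) and FNIP1 (0.044). With 4 groups such patterns have few degrees of freedom, and the distances are a description.

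The chromosomal surroundings of every member were also examined. Given here are those of CCNE1 and CDKN1A, which differed most between the lines, and of CDK6, whose neighbours were mostly lower. CDK6 itself differed little off the drug (-0.11), and the windows of the other members are not described. Within 1 Mb of CCNE1, 6 genes were tested, and off the drug 2 were higher in resistant cells, with a median of 0.0024. PLEKHF1 was higher by 0.73 and C19orf12 by 0.34, on the side upstream of CCNE1, while POP4 (0.0021), URI1 (0.0027) and UQCRFS1 (-0.039) were not called. On the drug URI1, POP4 and UQCRFS1 were lower (-0.49, -0.27 and -0.48). The log2 fold change of CCNE1 was larger than that of each tested neighbour, off and on the drug. Around CDKN1A 9 of 23 neighbours were higher and 2 lower off the drug, with a median of 0.036, among them KCTD20 (0.72), CMTR1 (0.71), PIM1 (0.62) and, at a mean log2 CPM of -1.24, ETV7 (5.24). Around CDK6 11 of 16 were lower and 2 higher off the drug, with a median of -0.35, and on the drug the counts were again 11 and 2, with a median of -0.50. The 2 higher ones were SAMD9 (2.65 off and 1.72 on the drug) and SAMD9L (4.66 and 3.25). Of all tested genes 30.3% were higher and 29.9% lower off the drug, and 34.6% and 34.9% on it. No test of the window counts against these shares was made. Neighbours are named here from the whole window, not by the naming rule.

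**Figure D5:**
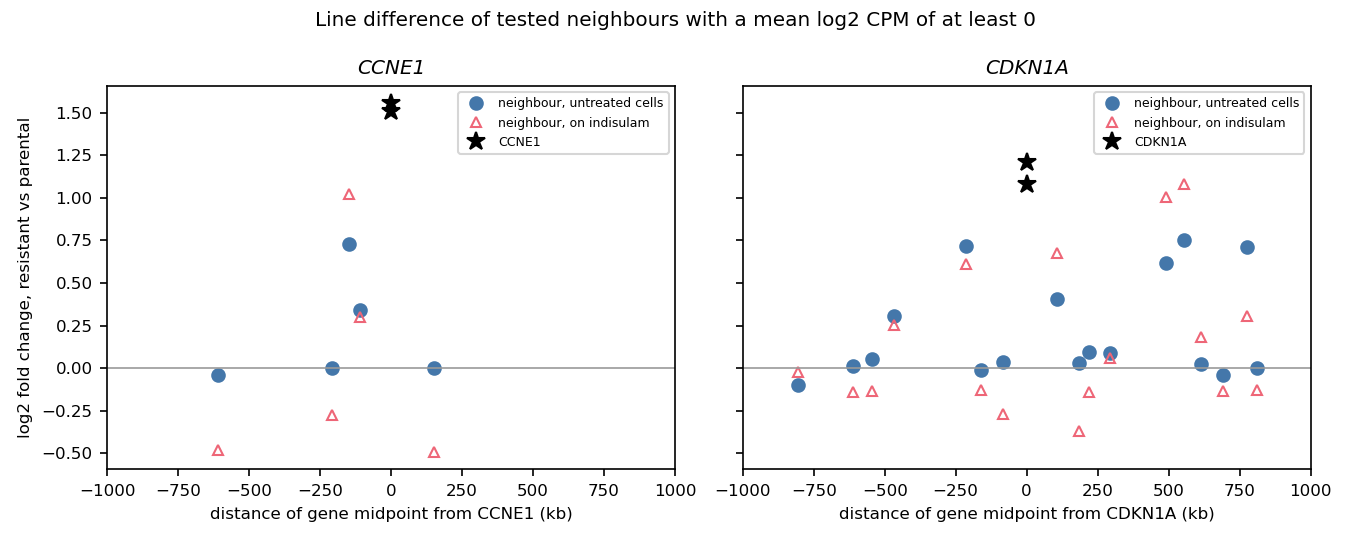
Log2 fold change between resistant and parental cells (linear axis) of tested genes within 1 Mb of CCNE1 and CDKN1A, by distance of gene midpoints in kb, for untreated cells (circles) and cells on indisulam (triangles). Stars mark CCNE1 (1.55 and 1.51) and CDKN1A (1.08 and 1.21), which lie above their plotted neighbours in the same condition. Genes with a mean log2 CPM under 0 are not plotted.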

How the data were processed

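Per the labels and the study's methods, the authors used stranded libraries of polyadenylated RNA, SeqPurge for trimming and HISAT2 2.2.1 for alignment to GRCh38, and they deposited raw read counts per gene for 8 libraries. Processing notes name Picard and HTSeq. The annotation release and the strand setting are not given in the sources used here. Unassigned reads, duplicates included, stood in 9 further lines (37.9 to 44.9% of all reads) and were left out. GENCODE 44 gave symbols, positions and exon lengths for 60419 of 60675 identifiers.

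The quasi-likelihood test of edgeR 4.0.16 in R 4.3.3 was applied to the counts (filterByExpr, TMM, robust, 4 group means over all 8 libraries, 4 residual degrees of freedom). Called means a Benjamini-Hochberg adjusted p under 0.05 over all 16661 tested genes. The SE is the size of the log2 fold change divided by the square root of F. CPM values are TMM-scaled and given per library unless named means. Depth bounds counting error alone, since the reads carry no molecular identifiers and are not independent molecules. Libraries of a group differed by more than sampling noise (mean chi-square per gene 2.07 to 6.33), so all were kept.

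The members and lists were chosen with earlier results of these data known. Named were the members, per comparison the 3 largest called rises and falls of the wider list at a mean log2 CPM of at least 3, the 2 largest of the E2F, p53 and mitotic lists, and genes of lists or windows described whole. CDK7, MNAT1, FOXO3 and KLF4 were named beyond this rule. The alternatives were DESeq2 1.42.0 (Wald test, size factors), library totals, other filters on low counts, fits of the compared groups, the replicate block, glmTreat and each library left out. Of the markers of cell identity, 1 was left out and is not reported here. The code was tested on simulated data. Plots used matplotlib 3.10.9 and Python 3.11.15.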

Additional observations from a re-analysis of the deposited data

Results flagged for a closer look

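For 6 members the 2 lines responded differently to indisulam by the test of the difference itself (edgeR, log2 change in resistant minus that in parental cells). The difference was negative for CCND3 (-0.14, adjusted p 0.0067), CCNE2 (-0.23, adjusted p 0.00033), CDK4 (-0.24, adjusted p 2.9e-05) and CDK6 (-0.29, adjusted p 6e-04), and positive for CDK2 (0.20, adjusted p 0.00027) and CDKN1B (0.18, adjusted p 0.0097). Among all tested genes 50.1% had such a call. Parental cells had been on the drug for 18 h and resistant cells without a break, so line and length of exposure cannot be told apart.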

How the results depend on the processing

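Every change of a member that was called kept its direction under all alternatives run, and 681 of 790 recomputed member values kept both direction and side of the threshold. Tested against 0.5 log2 units, in the order parental drug response, resistant drug response, lines off the drug, lines on the drug and difference of the responses, 0, 0, 3, 2 and 0 members were called (main analysis 4, 8, 9, 8 and 6), 2, 4, 11, 11 and 2 genes of the wider list (38, 42, 42, 45 and 36), and 1042, 879, 2582, 3509 and 908 of all genes (9690, 8446, 10021, 11579 and 8351), since this test asks for a larger change. In the 3 comparisons without a called member, no member had an unadjusted p under 0.05 by glmTreat. With each library left out in turn 3 to 5, 6 to 8, 8 to 9, 8 and 6 to 7 members were called.

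Values near 0 that were not called changed sign, and the cause was not tested. CCND1 in treated parental cells was -0.054 with library totals, -0.018 without a filter, -0.044 at a mean CPM of at least 1, -0.0084 in the compared groups alone, and -0.0095 to 0.015 with libraries left out. CCND1 in treated resistant cells was 0.048 with library totals, 0.027 at a mean CPM of at least 1, and -0.016 to 0.0084 with libraries left out. Its difference of the responses was 0.10 with library totals (adjusted p 0.024), 0.010 without a filter, 0.072 at a mean CPM of at least 1, and -0.017 to 0.018 with libraries left out. That of CCNE1 was 0.068 with library totals, 0.037 at a mean CPM of at least 1, and -0.061 to 0.0030 with libraries left out, and that of RB1 was 0.017 with library totals. CDK2 in treated parental cells was -0.0018 with library totals. CDK2 between the lines on the drug was 0.081 with library totals (adjusted p 0.013), 0.018 without a filter, 0.073 at a mean CPM of at least 1 (adjusted p 0.023), 0.0048 in the compared groups alone, and -0.0095 to 0.025 with libraries left out. CDK4 between the lines off the drug was -0.056 to 0.0021, and RB1 in treated parental cells -0.038 to 0.0044, with libraries left out.

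Same-numbered libraries did not deviate together (r of -0.145 to 0.0945 over the pairs of groups). With 2 libraries per group this cannot decide whether the numbers pair the samples. The replicate block changed 1 member call, the difference of the responses of CDKN1A (0.13, adjusted p 0.042). With 2 libraries per group and 1 resistant derivative, the number of libraries limits precision, and so does depth for CCNE1, which had 294 to 1061 reads per library.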
